A study of Mus musculus with 12 samples.

Results

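miR-122 was examined in the livers of mice of both sexes, through the 2 rows of the deposited mature microRNA table that carry its names, mmu-miR-122-5p and mmu-miR-122-3p, out of 2044 loci and 1906 mature names. Small RNA had been sequenced from the livers of male and female mice of the outbred stock Crl:CD1(ICR), 8 weeks of age, with 6 livers of each sex and 1 library per liver. Every animal was untreated as far as the labels say, and the labels do not tell which animals were littermates or were handled together, so p-values reflect only how these particular livers vary. The question put to the data was which microRNAs differ between the sexes.

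A microRNA is cut from a hairpin precursor by Drosha and then Dicer, and in most hairpins a single arm is loaded into an Argonaute protein and guides it to complementary messenger RNAs, while the opposite arm is discarded. miR-122 is the classical hepatocyte microRNA, expressed almost only in liver, and its 5p arm is the guide. In mice its loss lowers circulating cholesterol and leads to fatty liver, fibrosis and liver tumours, and in human cells hepatitis C virus depends on it.

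The 3 microRNAs next in abundance to miR-122-5p take up part of the same libraries, and its counts are set against theirs in the results. Their mature sequences are given 5′ to 3′ from RefSeq (GRCm38.p6), with the seed, bases 2 to 8, in capitals. The seed is the stretch that pairs with target sites.
miR-21a-5p: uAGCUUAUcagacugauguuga
miR-148a-3p: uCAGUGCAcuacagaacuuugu
miR-192-5p: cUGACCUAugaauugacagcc
Their seeds differ from each other. The RefSeq table holds 2 mature names with the miR-21a-5p seed (with miR-21c), 3 with that of miR-148a-3p (with miR-148b-3p and miR-152-3p) and 2 with that of miR-192-5p (with miR-215-5p).

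The 5p arm lies on mm9 chromosome 18, 65408520 to 65408541 (22 nt), and the 3p arm at 65408555 to 65408574 (20 nt). Each arm had 1 locus, and no other locus of the table overlapped either. The nearest other microRNA, miR-694, was 970356 bp away from the 3p arm. In a later annotation (GENCODE M21, GRCm38, used for names only) the miR-122 gene overlaps an exon of the long non-coding RNA AC157910.3 on the same strand, between the protein-coding genes Nedd4l and Alpk2. RefSeq also lists a gene Mir122b that overlaps the miR-122 gene, and 0 loci of the table carry that name. Among other microRNAs, 25 pairs of names with overlapping loci had 200 or more counts between them, and in 23 the counts differed by less than 1%, as for miR-126a-3p and miR-126b-5p. If Mir122b reads were counted in the same way, they could not be told apart from those of miR-122.

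miR-122-5p was the most abundant microRNA in each of the 12 livers. Its raw count lay between 918756 and 1580637 in males and between 1207065 and 1855046 in females, out of library totals of 2953955 to 5516430. It made up 33.2% of all microRNA counts on average over the 12 livers. miR-122-3p held 3919 to 6680 counts in males and 4865 to 8431 in females, and its rank by count was 46 to 50 in males and 48 to 51 in females. The check of the labelled tissue against its defining microRNA thus found it leading every library. Counting error was small for both arms, at most 0.104% of the count for 5p and at most 1.60% for 3p. These errors and the binomial intervals cover counting error only, since reads are not independent molecules.

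The share of counts taken by miR-122-5p was lower in males than in females. In males the lowest share was 28.7%, the median 30.4% and the highest 34.1%. In females the lowest was 33.6%, the median 35.0% and the highest 37.9%. Only male 1, at 34.1%, reached into the female range, and the other 5 males lay below every female. The exact (Clopper-Pearson) 95% interval of male 1 was 34.09% to 34.19%, so it lay in the female range beyond counting error. The mean was 30.8 ± 1.84% in male livers and 35.6 ± 1.80% in female livers (SD, n = 6 each). Male minus female came to -4.80 points (exact two-sided permutation test, p = 0.00433, adjusted p = 0.00866 over the 2 arms). A share also falls where other microRNAs take more of the counts. From a share in whole liver, this, fewer hepatocytes and less miR-122 per hepatocyte cannot be told apart. The difference was between -5.47 and -4.33 points with each liver left out in turn, and past the threshold each time.

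The miR-122-3p share was also lower in males, by a smaller proportion. Its lowest share was 0.121%, its median 0.134% and its highest 0.140% in males. The corresponding values in females were 0.135%, 0.140% and 0.159%. The sexes overlapped, with 3 females above every male and 3 males below every female. The mean was 0.132 ± 0.00741% in male livers and 0.143 ± 0.00925% in female livers (SD, n = 6 each). Male minus female came to -0.0119 points (exact two-sided permutation test, p = 0.0346, adjusted p = 0.0346). Leaving out male 2, 3 or 6 or female 1, 5 or 6 ended that call, with p between 0.0563 and 0.0758. The male mean share was 0.865 of the female mean for 5p and 0.917 for 3p.

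**Figure D1:**
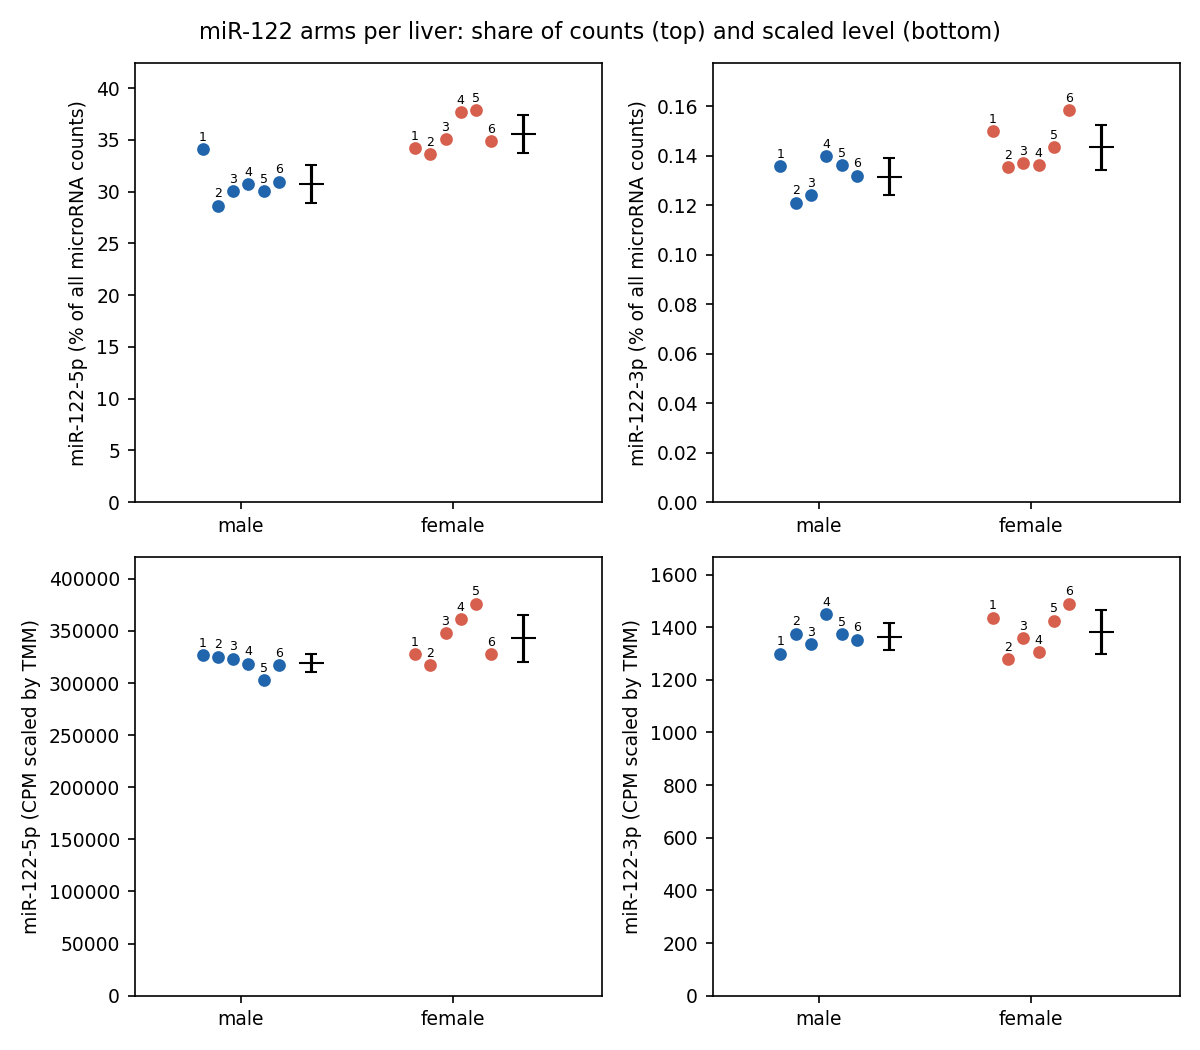
Share of all microRNA counts (top, %) and CPM scaled by TMM (bottom) of miR-122-5p (left) and miR-122-3p (right) in each liver, with males left of females, replicate numbers beside the points, and mean ± SD as black bars. For 5p, 5 of 6 males lie below every female by share, whereas by CPM the sexes overlap more; the 3p values of the sexes overlap in both panels.

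miR-21a-5p, known for its rise on injury and in tumours, was second in abundance and stood higher in males. It took 13.1% to 19.4% of counts in males and 7.63% to 9.84% in females, with no overlap. The counts of miR-122-5p for each count of miR-21a-5p were 1.48 to 2.61 in males and 3.56 to 4.94 in females, again with no overlap. All remaining microRNAs together held 52.9 ± 1.67% in male livers and 55.9 ± 1.36% in female livers (SD, n = 6 each; difference -3.02 points, exact two-sided permutation test, p = 0.013). With miR-21a-5p taken out of the total, the miR-122-5p share was 36.8 ± 1.54% in male livers and 38.9 ± 1.73% in female livers (SD, n = 6 each). As miR-21a-5p took more of the counts in every male than in any female, taking it out raises male shares by the larger factor. The direction of that change was thus set in advance, and the part of miR-21a-5p in the share difference was not tested. The difference shrank to -2.11 points and no longer passed (exact two-sided permutation test, p = 0.0541). It was -2.61 points without male 1 (exact two-sided permutation test, p = 0.0152), an alternative chosen after the data were seen. Male 1 held the highest male share in this measure too, at 39.3%, so leaving it out could only widen the difference. The same step turned the miR-122-3p difference to 0.000414 points (exact two-sided permutation test, p = 0.931).

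**Figure D2:**
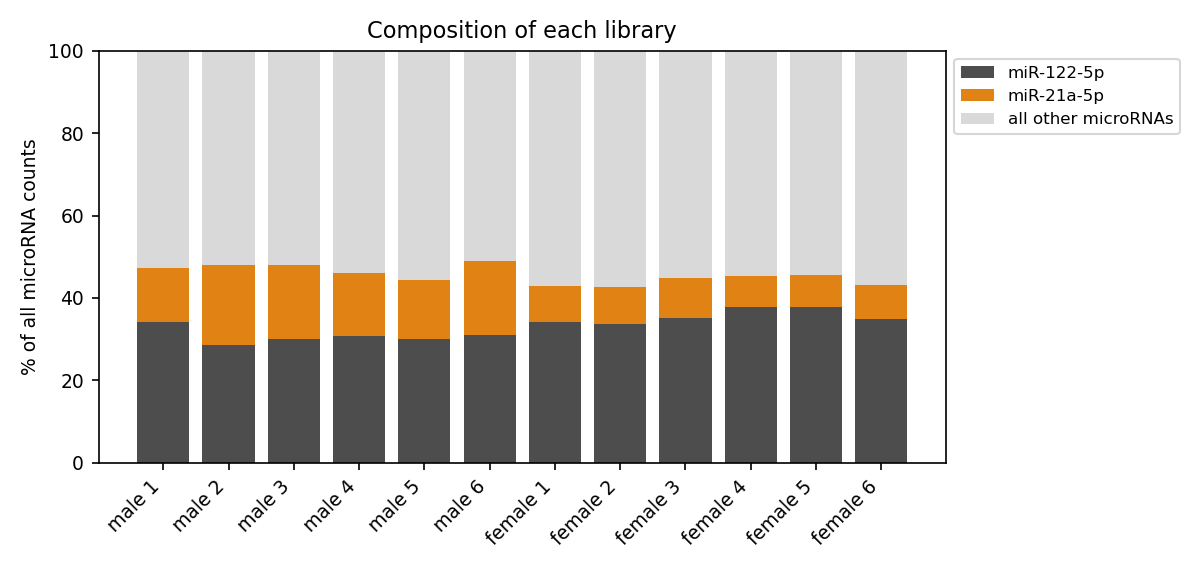
Stacked shares of all microRNA counts (%) in each liver for miR-122-5p, miR-21a-5p and all other microRNAs. miR-21a-5p takes 13.1% to 19.4% in males and 7.63% to 9.84% in females, and miR-122-5p 28.7% to 34.1% in males and 33.6% to 37.9% in females.

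TMM scaling (trimmed mean of M values) sets libraries to a common level on the bulk of the microRNAs. After it, neither arm passed edgeR's test between the sexes with adjustment over the 419 tested names. The TMM factors themselves averaged 0.965 ± 0.0562 in male livers and 1.04 ± 0.0248 in female livers (SD, n = 6 each; exact two-sided permutation test, p = 0.0152). In CPM, counts scaled to a common library size, here with TMM factors, miR-122-5p had a lowest value of 302954, a median of 321066 and a highest of 326505 in males. In females the lowest was 317260, the median 337852 and the highest 376318. In this scale 5 females lay above every male, and only female 2 lay within the male range. The mean was 319017 ± 8682 CPM in male livers and 343046 ± 22759 CPM in female livers (SD, n = 6 each). Male over female gave a log2 fold change of -0.10 (standard error 0.04), or 0.930-fold with a 95% interval of 0.870 to 0.994. Over the 419 tested names its adjusted p was 0.132 (edgeR's quasi-likelihood test, Benjamini-Hochberg). The ratio of the mean shares, 0.865, lay below this interval. Of all tested names 16.9% were called at an adjusted p under 0.05, 8.35% higher and 8.59% lower in males. The sexes did not overlap in 8.11% of them, and 29.4% had an unadjusted p under 0.05, miR-122-5p included (edgeR, 0.0347). DESeq2 did not call it either (adjusted p = 0.254). On its TMM-scaled CPM the exact two-sided permutation test used for the shares gave an unadjusted p of 0.0303. The shares were adjusted over 2 arms and the edgeR values over 419 names, so these results do not stand on equal terms.

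miR-122-3p was nearly level between the sexes after TMM. Its lowest, median and highest values were 1299.9, 1363 and 1450.2 CPM in males. Those in females were 1279, 1391 and 1489.8 CPM, so the female range enclosed the male range. Male over female gave a log2 fold change of -0.02 (standard error 0.06), or 0.987-fold (95% interval 0.909 to 1.07, adjusted p = 0.847 by edgeR's quasi-likelihood test and 0.963 by DESeq2). The authors' deposited table gives log2 fold changes of male over female of -0.07 for 5p and 0.02 for 3p, each with an FDR of 1.

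The scaling decided whether miR-122-5p was called. With libraries scaled by total counts alone, its log2 fold change was -0.21 (edgeR, adjusted p = 0.00684), and that of 3p was -0.12 (adjusted p = 0.184). With it, the median of the log2 fold changes of the 419 names shifted by -0.10, and edgeR called 26 names higher and 58 lower in males, against 35 and 36 after TMM. Relative to the median of all names, miR-122-5p stood at -0.08 after TMM and at -0.08 with total counts alone.

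**Figure D3:**
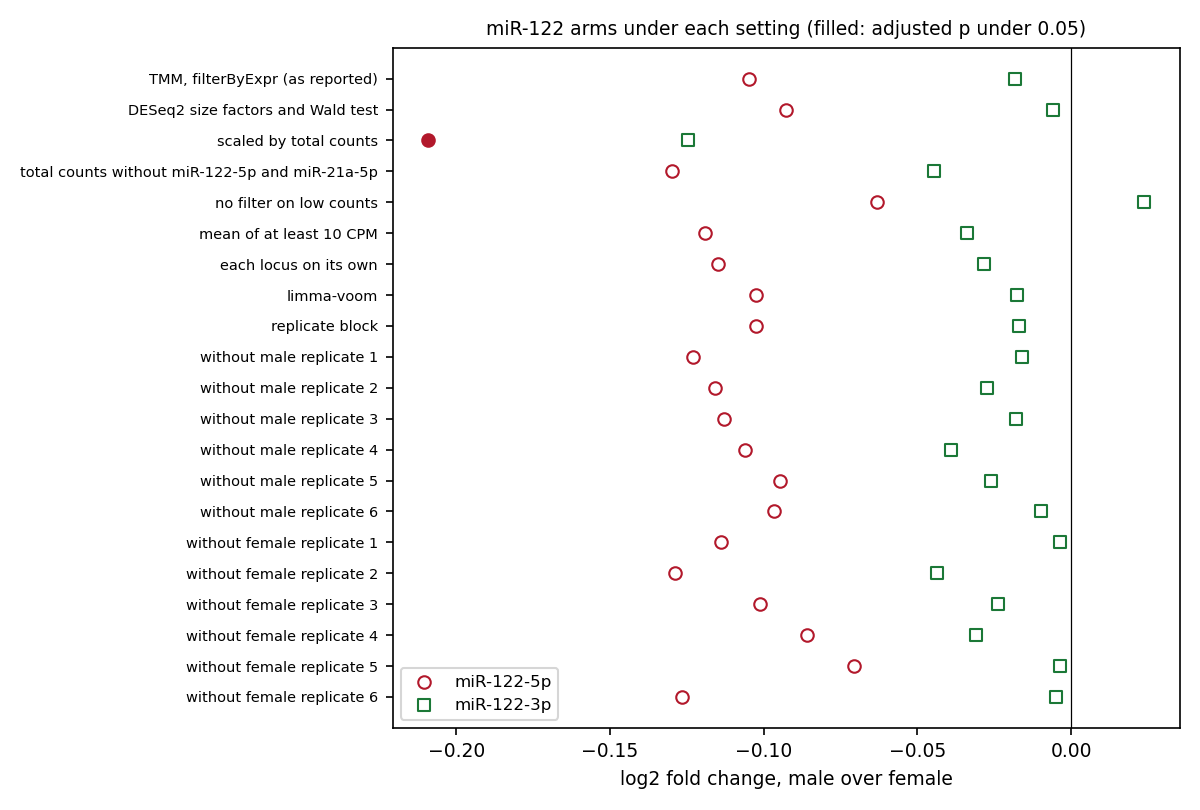
Log2 fold change of male over female (x axis) of miR-122-5p (red circles) and miR-122-3p (green squares) under each processing setting and with each liver left out; filled symbols passed an adjusted p of 0.05. miR-122-5p is below 0 in all settings shown and passes only with total-count scaling; miR-122-3p is above 0 only with no filter on low counts, at 0.02.

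Ratios within a library need no scaling, and set miR-122-5p against each of the next 9 most abundant microRNAs. miR-122-5p was lower in males relative to miR-21a-5p, let-7g-5p and let-7f-5p, and did not pass against the other 6 names. The let-7 family, broadly expressed repressors of growth genes, gave the tightest ratios. There were 10.9 to 12.4 counts of miR-122-5p per count of let-7g-5p in males and 13.0 to 14.4 in females, and the sexes did not overlap. For let-7f-5p these ratios were 11.6 to 12.4 in males and 12.9 to 15.2 in females, again without overlap. The log2 ratio differed by -0.22 for let-7g-5p and by -0.21 for let-7f-5p (exact two-sided permutation test, p = 0.00216 each, the smallest that the 924 arrangements can give, adjusted p = 0.00649 over the 9 ratios). Both passed whichever liver was left out. Neither let-7 was itself called by edgeR (0.11, adjusted p = 0.154, for let-7g-5p and 0.11, adjusted p = 0.0872, for let-7f-5p).

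Against the other abundant hepatocyte microRNAs the ratio did not pass the test, and the ranges of the sexes overlapped. For miR-148a-3p, a microRNA abundant in hepatocytes, the log2 ratio was 2.21 ± 0.18 in male livers and 2.23 ± 0.15 in female livers (SD, n = 6 each), a difference of -0.02 (exact two-sided permutation test, adjusted p = 0.827). It differed by -0.08 for miR-192-5p (adjusted p = 0.697) and by 0.10 for miR-194-5p (adjusted p = 0.827), which is made from the same clusters as miR-192 and miR-215. The overlapping names miR-126a-3p and miR-126b-5p, of which miR-126a is an endothelial microRNA, hold a single signal, and both gave -0.02 (adjusted p = 0.827). For miR-26a-5p, another broadly expressed microRNA, the difference was -0.17 with 4 of 6 females above every male (adjusted p = 0.0536). That value passed without male 3, male 6, female 2 or female 6, with adjusted p between 0.0292 and 0.0438.

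**Figure D4:**
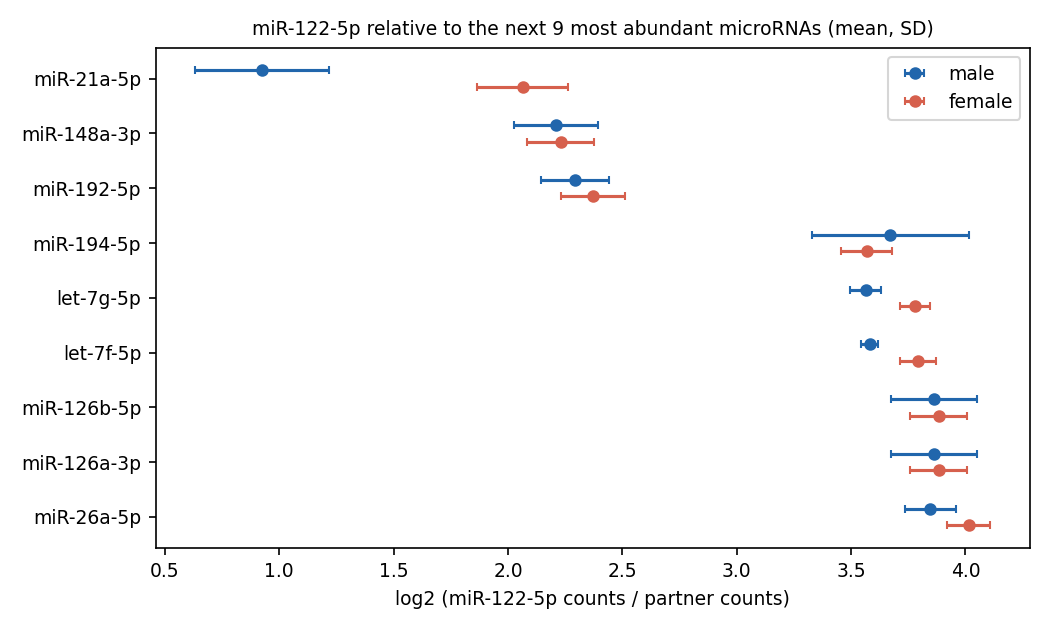
Log2 ratio of miR-122-5p counts to the counts of each of the next 9 most abundant microRNAs (mean ± SD over 6 livers), with males in blue above females in red. The sexes are apart for miR-21a-5p (difference -1.14), let-7g-5p (-0.22) and let-7f-5p (-0.21), and overlap for the other 6 names.

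The 2 arms were strongly unequal. The 5p arm had 219.8 to 251 counts for each count of 3p in males and 220.03 to 277 in females, with means of 234 ± 12.2 in male livers and 249 ± 21.6 in female livers (SD, n = 6 each). The log2 ratio of 3p over 5p was -7.87 ± 0.08 in male livers and -7.96 ± 0.13 in female livers (SD, n = 6 each). The difference of 0.09 did not pass (exact two-sided permutation test, p = 0.188), and the ranges overlapped, with 3 females below every male. Among the 124 hairpins with both arms tested, miR-122 had the 14th largest excess of its main arm, where the median hairpin had an 8.01-fold excess. Its arm ratio also varied little between livers of a sex, with a within-sex SD of 0.10 on the log2 scale against a median of 0.31 over the hairpins. Low counts of the minor arm widen this spread, so the comparison was repeated, by a limit set after the data were seen, with the 13 hairpins whose minor arm had at least 10000 counts, overlapping hairpins counted once. Their median was 0.15, and miR-126a, miR-22 and miR-486a were steadier than miR-122. The arms of miR-486a had the same counts as the overlapping arms of miR-486b, and its main arm had only a 1.03-fold excess. How far its ratio measures the use of its arms was not tested.

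After TMM scaling, and pooled over the sexes, both arms were among the steadiest microRNAs between livers of the same sex. The within-sex SD of log2 CPM was 0.07 for 5p and 0.07 for 3p, with 6 and 5 of the 419 tested names below them, and a median over all tested names of 0.29. Low counts widen this spread, so the comparison was repeated with the 53 names of at least 1000 CPM. Their median was 0.13, and 4 of them were steadier than 5p and 3 steadier than 3p. miR-21a-5p, second in abundance, had 0.24, and 43 of the 53 names were steadier. For miR-122-5p the SD in CPM was 2.72% of the mean in males and 6.63% in females. By share of counts it was 5.98% in males and 5.07% in females, so the steadiness of males differed with the scaling. For miR-122-3p these values were 3.68% and 5.93% in CPM, and 5.63% and 6.45% by share.

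**Figure D5:**
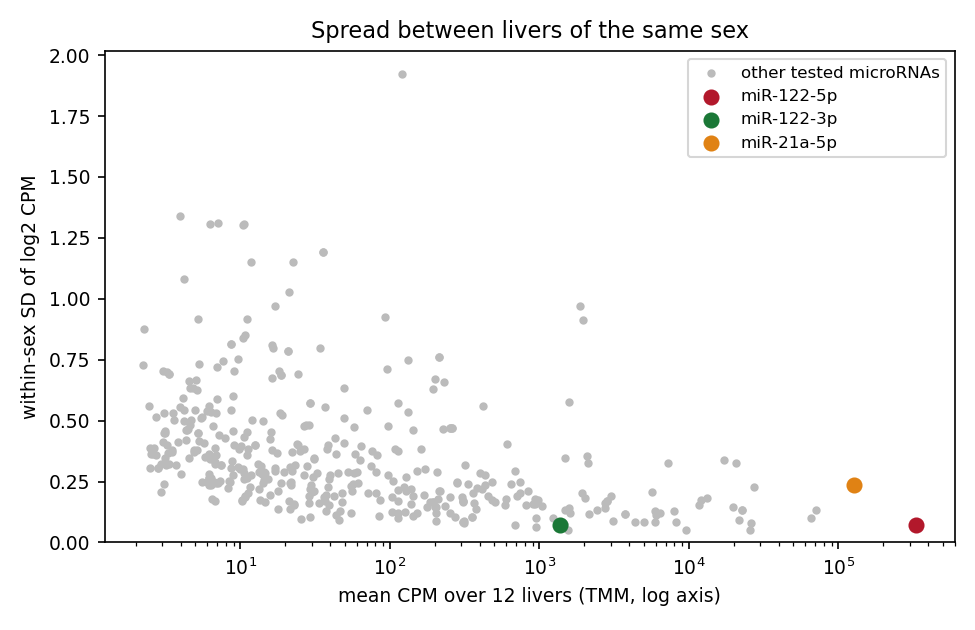
Within-sex SD of log2 CPM (y axis) against mean CPM over 12 livers (x axis, log scale) for the 419 tested microRNAs, with miR-122-5p, miR-122-3p and miR-21a-5p in colour. Both miR-122 arms lie near the lower edge at 0.07, while miR-21a-5p lies at 0.24.

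The correlation of the arms between livers differed with the scaling and did not pass after adjustment under either scaling. After TMM, over the 12 livers, Pearson's r of their log2 CPM was 0.04 (permutation p = 0.884, adjusted p = 0.961 over 3 sets of livers) and Spearman's rho 0.18 (permutation p = 0.576, adjusted p = 0.863). Without female 4 and female 5, the livers farthest from the median of 5p, r was 0.09. Within males r was -0.31 (exact permutation p = 0.467, adjusted p = 0.961, n = 6) and rho -0.37 (exact permutation p = 0.497, adjusted p = 0.863). Within females r was 0.02 (exact permutation p = 0.961, adjusted p = 0.961, n = 6) and rho 0.03 (exact permutation p = 1). With total-count scaling r over the 12 livers was 0.60 (permutation p = 0.0351, adjusted p = 0.105 over 3 sets of livers) and rho 0.64 (permutation p = 0.0299, adjusted p = 0.0896). It rested on male 2 and male 3, the livers farthest from the median of 5p, without which r was 0.30. Within the sexes that scaling gave an r of 0.59 in males (exact permutation p = 0.153, adjusted p = 0.229, n = 6) and -0.18 in females (exact permutation p = 0.778, adjusted p = 0.778, n = 6). The rho was 0.54 in males (exact permutation p = 0.297, adjusted p = 0.446) and 0.09 in females (exact permutation p = 0.919, adjusted p = 0.919).

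The microRNA whose pattern over the 12 livers was most like that of miR-122-5p was miR-28a-3p, with a Pearson correlation of log2 CPM of 0.84 (0.73 within the sexes). It was followed by miR-151-3p (0.78, and 0.68 within the sexes), miR-28a-5p (0.76 and 0.57), miR-744-5p (0.69 and 0.57) and miR-140-3p (0.68 and 0.39), among 150 names with a mean of at least 100 CPM and a median r of 0.03. These points share their libraries and their scaling factors. The names were picked over livers of both sexes for following a microRNA with a negative log2 fold change, so the sign of their own sex difference is partly set by that choice. miR-28a-5p (-0.44, edgeR adjusted p = 0.00523), miR-28a-3p (-0.28, adjusted p = 0.036) and miR-140-3p (-0.15, adjusted p = 0.0497) were called, where 16.9% of all tested names were, and nothing is read from that count. Leaving out male 3 or 5 or female 1, 3, 4 or 5 ended the call of miR-28a-3p (edgeR adjusted p up to 0.0726). That of miR-140-3p ended with each liver left out other than male 1 or 2 (up to 0.115). With no filter on low counts the edgeR adjusted p was 0.0647 for miR-28a-5p, 0.353 for miR-28a-3p and 0.491 for miR-140-3p, so none of the 3 was called. Patterns like that of miR-122-3p were looser, led by miR-195a-5p (0.63), then miR-24-2-5p and the overlapping miR-3074-2-3p (0.48 each), miR-30a-3p (0.46) and miR-30b-5p (0.45). edgeR and DESeq2 each called 0 of these 5, and 0 had an unadjusted p under 0.05 by edgeR. The 2 sets shared no name.

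miR-122 was set within a list of microRNAs known from hepatocytes that includes both of its arms. Of the 32 names of this list in the table, 28 passed the filter on low counts. 8 were higher and 2 lower in males, and 18, both arms of miR-122 among them, did not pass. Of all tested names 8.35% were called higher and 8.59% lower in males. Higher were miR-101b-5p, miR-365-3p and both arms of miR-22, miR-455 and miR-1948. Lower were both arms of miR-802, an obesity-linked regulator of glucose metabolism in mouse liver. The median log2 fold change of these 28 was 0.17, against -0.02 for all tested names. With total-count scaling it was 0.05, against -0.12 for all tested names. The list was chosen with earlier results of these data known, and it counts both arms of a hairpin separately. Nothing is therefore read from its number of calls or from its medians. The largest rise was that of miR-1948-5p, at 2.67, and the largest fall that of miR-802-5p, at -1.20 (edgeR, adjusted p = 3.24e-07 and 0.000398). The call of miR-22-3p (0.31, edgeR adjusted p = 0.0216) was lost without female 2 (0.0535). That of miR-22-5p (0.34, adjusted p = 0.0449) ended on leaving out male 1, 2, 3 or 4 or female 1, 2, 3, 4 or 6 (up to 0.0936). With total-count scaling the edgeR adjusted p was 0.151 for miR-22-3p, 0.167 for miR-22-5p and 0.0674 for miR-365-3p, so none of these 3 was called. With no filter on low counts miR-22-5p had 0.0873. Summed without miR-122, the list held 197114 to 267474 CPM in males and 225162 to 242528 CPM in females, with male 1 the lowest of all livers. Male 1 was thus the male with the highest miR-122-5p share and the lowest sum, in CPM, of the other hepatocyte microRNAs. In CPM its miR-122-5p, at 326505, stood close to male 2 at 325353 and male 3 at 323390. Its miR-21a-5p share, at 13.1%, was the lowest among males.

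Markers of mesenchymal cells, the stellate cells, fibroblasts and smooth muscle of the liver, stood lower in most males when summed, and miR-143-3p made up most of that sum. Their 10 arms, all of them tested, summed to 10689.5 to 16577 CPM in males and 15322 to 18312 CPM in females. The mean sum was 13332 ± 1951 CPM for male livers and 16279 ± 1050.3 CPM for female livers (SD, n = 6 each), and 5 of 6 males lay below every female. miR-143-3p alone held 10612 ± 1655 CPM in male livers and 13396 ± 903 CPM in female livers, and the other 9 arms 2720 ± 349 CPM in male livers and 2883 ± 188 CPM in female livers (SD, n = 6 each). The median log2 fold change of the 10 arms was -0.14. miR-143-3p (-0.34, edgeR adjusted p = 0.0263) and miR-143-5p (-0.44, adjusted p = 0.0273) were lower in males, and the other 8 arms were not called. That is 2 of 10, near the 16.9% called among all tested names. Leaving out male 2, 3 or 5 or female 1 or 2 ended the call of miR-143-3p (up to 0.0632), and male 3 or 6 or female 1, 2 or 4 that of miR-143-5p (up to 0.0634). Neither was called with no filter on low counts (edgeR adjusted p = 0.0916 for miR-143-3p and 0.142 for miR-143-5p). This sum moved with sex in the same direction as the miR-122-5p share, and its part in that result was not tested. Immune markers summed to 1156 to 1984 CPM in males and 1496 to 2022 CPM in females, and of 9 tested arms only miR-142a-5p was called, lower in males (-0.47, edgeR adjusted p = 0.0256). That call ended without male 3 or 6 or female 1 or 6 (up to 0.0632) and with no filter on low counts (0.0749). Erythroid markers summed to 1298 to 4955 CPM in males and 2449 to 3816 CPM in females, with 0 of 7 called by edgeR, while 1, miR-144-3p (-0.72), had an unadjusted p under 0.05 and was called by DESeq2. The overlapping miR-486a and miR-486b both enter that sum. The endothelial arms of miR-126a summed to 21232 to 28894 CPM in males and 24161 to 27335 CPM in females, and epithelial markers to 807 to 7163 CPM in males and 2335 to 7975 CPM in females, with 0 called in either list by edgeR or DESeq2 and 0 with an unadjusted p under 0.05 by edgeR. Striated muscle markers were scarce, at 7.62 to 129 CPM in males and 9.05 to 39.5 CPM in females, and of the 2 tested arms 0 were called by either tool and 0 had an unadjusted p under 0.05 by edgeR. No list had all of its members at 0, and 1 name each of the epithelial and muscle lists had no count in any liver.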

How the data were processed

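Small RNA libraries of 12 livers were made from total RNA with a strand-specific small RNA kit, per the labels' protocols. Tools listed in the submitters' processing notes are edgeR, bedtools, Bowtie2 and Trim Galore, with mm9 as the build, without versions or order. The authors deposited whole-number read counts per mature locus, not normalized, together with their own edgeR log2 fold change, log2 CPM, p-value and FDR, per the file headers. Use of strand in counting is not given in the sources used here. 0 columns of per-sample values were unused.

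Counts of loci with the same name were summed (78 names had several loci), which gave 1906 names. filterByExpr left 419 names, scaled by TMM and tested with edgeR 4.0.16 (R 4.3.3; glmQLFit, glmQLFTest, no covariate, Benjamini-Hochberg, threshold 0.05). DESeq2 1.42.0 and limma 3.58.1 were alternatives. Log2 CPM used a prior count of 2. Standard errors and intervals came from the quasi-likelihood F statistic. Shares and ratios were compared by exact two-sided permutation tests over 924 arrangements, correlations over 12 livers by 100000 permutations. Same-sex libraries all differed beyond sampling noise (chi-square per degree of freedom at least 20.5). The edgeR and permutation procedures were tested on simulated data.

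Members, lists and naming rule were chosen with earlier results of these data known. Named are both arms, the 9 next most abundant names, the 5 most alike to each arm, called hepatocyte members and the most abundant marker of each other cell type. miR-142a-5p and miR-143-5p, called in their lists, fell outside that rule and were chosen after their values were seen. The remaining names stand only as overlapping, nearest or seed-sharing names.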

Additional observations from a re-analysis of the deposited data

Results flagged for a closer look

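In 100 groups of 6 livers of 1 sex, the end value of 11 stood far from the others by the gap to the nearest other value relative to the range of the group; chance gives about 1 in 20 groups. None of them was a value of miR-122 itself. Male 1 was the far liver for 6 of the 11, at 54819 CPM for miR-192-5p, 16107 for miR-194-5p and 403 for miR-455-5p, each the lowest male. It was the highest male for let-7g-5p (29941 CPM), let-7f-5p (28161 CPM) and miR-22-3p (27130 CPM).

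Female 1 was the highest female for the mesenchymal sum (18312 CPM) and for miR-143-3p (15168 CPM), its most abundant member. Male 4 was the highest male for the striated muscle sum (129 CPM) and miR-1a-3p (109 CPM), its most abundant member, and for miR-143-5p (83.2 CPM). These values were not tested further.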

How the results depend on the processing

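The miR-122-5p log2 fold change was below 0 under all 20 alternatives and passed only with total-count scaling (-0.21). It lay between -0.13 and -0.07 with each liver left out (edgeR adjusted p 0.0535 to 0.275). The miR-122-3p value stayed uncalled, lay between -0.04 and -0.00346 with each liver left out, and turned to 0.0237 with no filter on low counts; the cause was not tested. The number of called names lay between 47 (without male 3) and 82 (without male 1), against 71.

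With miR-21a-5p out of the total, the share difference was -2.11 points for 5p and 0.000414 points for 3p, and 0.000569 points for 3p also without male 1. With each liver left out the 5p share difference ranged from -5.47 to -4.33 and the 3p one from -0.0135 to -0.00884. The arm ratio difference passed under none of 15 alternatives. The number of the 9 ratios past the threshold was 3 or 4 with a liver left out. The correlation of the arms was 0.60 with total-count scaling and ranged from -0.17 (without female 5) to 0.24 with a liver left out; it was also negative without female 2, at -0.06.

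Males and females share replicate numbers, but nothing in the labels says that a number pairs animals. Same-numbered livers deviated together with correlations of -0.13 to 0.30, and in 0 of 6 cases was a liver closest to its own number. With the replicate number as a block, edgeR called 48 names, miR-122-5p stood at -0.10 (adjusted p = 0.278), and the 3p share difference of -0.0119 had p = 0.0625 by an exact sign-flip test. With that block 3 of the 9 ratios passed an unadjusted p of 0.05 by the exact sign-flip test. Their p was 0.0312, the smallest that 64 sign flips allow, and became 0.0938 after adjustment, so 0 of the 9 passed. With only 3 ratios at that floor none could pass after adjustment, so this count cannot tell whether the ratios depend on the block.

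For the other 36 named microRNAs, 639 of 718 values kept both their direction and their side of the threshold, 57 lost a call, 4 gained one and 18 changed sign without a call. With total-count scaling the sign changed for miR-26a-5p (-0.0378), miR-195a-5p (-0.0596), miR-30b-5p (-0.0842) and miR-146a-5p (-0.0278), and that of miR-30b-5p also with totals that leave out miR-122-5p and miR-21a-5p (-0.00513). With no filter on low counts it changed for miR-192-5p (0.0241) and miR-451a (0.0186), and with DESeq2 for miR-451a (0.00353). With each liver left out, values crossed 0 for miR-192-5p (-0.0488 to 0.0124), miR-146a-5p (-0.0644 to 0.143), miR-451a (-0.314 to 0.159) and miR-1a-3p (-0.499 to 1.05, negative only without male 4). The cause was not tested.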
